A study of Mus musculus with 12 samples.

Results

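Transcripts of the NRF2 pathway, of glutathione metabolism and of other antioxidant enzymes were followed in the lungs of Nfkb1+/+ and Nfkb1-/- mice breathing filtered air or O3. The set was a list of 39 gene symbols, and a gene was taken when at least 1 probe set of the array was annotated with that symbol and no other. Where several probe sets qualified, the one with the highest mean log2 signal over all arrays stood for the gene. This gave 36 of the 39 genes, out of 17569 genes tested on the array. Prdx1 was represented only by probe sets that also carried a second symbol, Prdx6 and G6pdx had no probe set of a single symbol, and these 3 genes have no values here.

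Homogenised left lung from 3 mice per group was hybridised to Affymetrix Mouse Genome 430 2.0 arrays, with 1 mouse per array and 12 arrays in all. Nfkb1+/+ mice breathed filtered air (WT-Air) or O3 (WT-O3), and so did Nfkb1-/- mice (Nfkb1KO-Air and Nfkb1KO-O3). The exposure was 0.3 ppm without interruption for 48 h, and all mice were males of 6 to 8 weeks. The Nfkb1-/- mice (allele Nfkb1tm1Bal) lack the p105 precursor and p50 subunit of NF-κB in every cell, and the wild-type mice were a separate hybrid stock (B6129PF2/J), so that the effect of the allele and of the stock cannot be told apart. The questions were whether loss of Nfkb1 alters these transcripts in air or after O3, and which of them respond to O3 in each genotype.

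NRF2, encoded by Nfe2l2, is a transcription factor that KEAP1 holds in the cytoplasm and sends to degradation. Oxidants and electrophiles modify KEAP1, and NRF2 then enters the nucleus, pairs with a small MAF protein and binds antioxidant response elements (ARE) upstream of genes for glutathione synthesis, glutathione transfer, thioredoxin recycling, quinone reduction and NADPH supply. In the lung, where O3 reacts with the lining fluid and the epithelium, these enzymes detoxify lipid peroxidation products, and the metallothioneins, which bind zinc and other metals under control of the factor MTF-1, act beside them as thiol-rich scavengers.

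The median deposited signal lay between 99.14 and 121.2 in 11 arrays and was 180.1 in Nfkb1KO-Air replicate 1, whose rank correlation with the others was 0.915 to 0.93 against 0.947 to 0.969 among the others. No probe set was annotated to Nfkb1 alone, so the genotype labels were not checked against the targeted transcript. Markers of alveolar type 2 cells summed to 121000 to 138000 and those of alveolar type 1 cells to 68500 to 88000 in every array. Adipocyte markers (7 of 9 listed were measured) varied widely, with a summed signal above 30000 in WT-Air replicates 1 and 3 and in Nfkb1KO-O3 replicate 2 and of 2370 to 23900 elsewhere. Skeletal muscle markers summed to 1300 to 36800 in WT-Air, 553 to 1090 in WT-O3, 1410 to 2130 in Nfkb1KO-Air and 583 to 9060 in Nfkb1KO-O3. Cardiac muscle markers ranged from 8270 to 107000 over the 12 arrays and were highest in WT-Air replicate 1 and Nfkb1KO-O3 replicate 2, which are 2 of the 3 arrays of high adipocyte signal.

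The upstream sequences of 5 members that rose with O3 are shown because the 2 factors above bind short, known motifs. RefSeq promoter windows (assembly GRCm38.p6, from 250 bases before to 50 bases after the transcription start) were matched by symbol for 32 of the 39 members, and Gclc, Gsr, Gsta4, Abcc1, Prdx6, Sod3 and Hmox1 had none. The core of the ARE was searched as TGACNNNGC, and the core of the metal response element (MRE) of MTF-1 as TGCACNC or TGCGCNC, all on both strands. In the sequences below, the 250 bases before the start are written 5′ to 3′ on the strand of the gene. Capitals mark ARE cores in Gsta3, Txnrd1 and Nfe2l2 and MRE cores in Mt2 and Mt1.
Gsta3: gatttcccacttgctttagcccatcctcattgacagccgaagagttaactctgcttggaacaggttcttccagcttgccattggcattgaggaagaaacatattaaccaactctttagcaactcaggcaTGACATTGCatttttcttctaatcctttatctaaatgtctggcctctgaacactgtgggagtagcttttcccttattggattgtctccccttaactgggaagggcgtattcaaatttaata
Txnrd1: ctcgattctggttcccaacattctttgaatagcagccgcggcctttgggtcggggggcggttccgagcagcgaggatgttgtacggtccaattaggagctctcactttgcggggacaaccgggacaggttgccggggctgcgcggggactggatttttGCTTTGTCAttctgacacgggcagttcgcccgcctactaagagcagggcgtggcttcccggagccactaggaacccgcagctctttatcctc
Nfe2l2: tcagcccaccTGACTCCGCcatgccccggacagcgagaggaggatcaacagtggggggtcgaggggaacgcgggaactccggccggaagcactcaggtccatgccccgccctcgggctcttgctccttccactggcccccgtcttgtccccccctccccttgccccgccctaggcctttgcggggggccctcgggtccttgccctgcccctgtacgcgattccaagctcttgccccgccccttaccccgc
Mt2: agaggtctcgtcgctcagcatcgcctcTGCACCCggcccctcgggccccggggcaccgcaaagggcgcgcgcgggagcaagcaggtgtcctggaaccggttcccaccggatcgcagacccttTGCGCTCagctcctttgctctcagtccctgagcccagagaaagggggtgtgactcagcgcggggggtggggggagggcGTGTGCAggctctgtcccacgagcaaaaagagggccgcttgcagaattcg
Mt1: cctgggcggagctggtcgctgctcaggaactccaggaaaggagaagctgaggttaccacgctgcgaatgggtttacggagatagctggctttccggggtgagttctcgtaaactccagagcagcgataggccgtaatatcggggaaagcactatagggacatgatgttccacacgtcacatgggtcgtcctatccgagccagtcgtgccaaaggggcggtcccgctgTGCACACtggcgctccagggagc
The 5 stretches lie at chr1:21240335-21240584, plus strand (Gsta3), chr10:82858956-82859205, plus strand (Txnrd1, 1 of its 3 windows), chr2:75704664-75704913, minus strand (Nfe2l2), chr8:94172368-94172617, plus strand (Mt2) and chr8:94178839-94179088, plus strand (Mt1).

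Counted from the start, the ARE core lay at bases -121 to -113 in Gsta3, -92 to -84 on the opposite strand in Txnrd1 and -240 to -232 in Nfe2l2. Mt2 held 3 MRE cores in the stretch shown, at -223, -128 and -50, and an ARE core, TGACTCAGC, at -79 to -71, which is in lower case above. Mt1 held 1 MRE core in its stretch, at -23, and 2 more after the start, and no ARE core. None of these cores overlapped another. Only windows with a core before the start were shown, and the other windows of Txnrd1 held no ARE core. Sod2, which rose in Nfkb1-deficient mice, held neither kind of core. Srxn1, which also rose in these mice, had its ARE core after the start, at 29 to 37. An ARE core was present in 12 of the 32 members with a window, in 12 of their 37 windows, and in 12.4% of all 32851 windows of the table. A core of either MRE form was present in 7 of the 32 members, in 8 of their 37 windows, and in 25.7% of all windows. Of the 11 members with a window that passed the threshold in some comparison below, 5 held an ARE core (Nfe2l2, Gsta3, Txnrd1, Srxn1 and Mt2), as did 5 of the 19 that were measured and not called and both that had a window but no values (Prdx1 and G6pdx). A match of these letters is a description of the window and shows no binding.

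With O3, members moved in both directions, and most of the 36 passed no test. A member is said to have risen, fallen or been called when its adjusted p in limma was under 0.05 over all 17569 genes. In WT mice 6 members rose (Nfe2l2, Gclc, Gsta3, Txnrd1, Mt1 and Mt2) and 1 fell (Gstm2), where 5.4% of all genes were called, 3.16% as higher and 2.24% as lower. In Nfkb1-deficient mice 6 rose (Nfe2l2, Gsta3, Sod2, Txnrd1, Srxn1 and Mt2) and 3 fell (Gsto1, Cat and Ephx1), where 6.18% of all genes were called, 3.35% as higher and 2.83% as lower. Nfe2l2, Gsta3, Txnrd1 and Mt2 rose in both genotypes, and no member was called in opposite directions. At an unadjusted p under 0.05 there were 15 of the 36 members in each genotype, against 19.7% of all genes in WT mice and 21.5% in Nfkb1-deficient mice. The groups did not overlap for 12 members higher and 5 lower after O3 in WT mice, where 13.5% of all genes were higher and 14.1% lower in this way. In Nfkb1-deficient mice they did not overlap for 10 members higher and 5 lower, against 13.1% and 12.3% of all genes. The median log2 change of the 36 members was 0.09 in WT mice and 0.05 in Nfkb1-deficient mice, and that of all genes was -0.03 and -0.01. With arrays centred on their medians, which put the median change of all genes at 0.25 in Nfkb1-deficient mice, 5 members rose and 0 fell in these mice. In WT mice 1 rose and 0 fell. In this scaling 1.75% of all genes were called in Nfkb1-deficient mice and 0.495% in WT mice. With the deposited scaling alone 6 members rose and 1 fell in each, where 6.6% and 5.17% of all genes were called in the same order. The RNA came from whole lung, so that fewer cells of a type and less RNA per cell cannot be told apart.

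**Figure D1:**
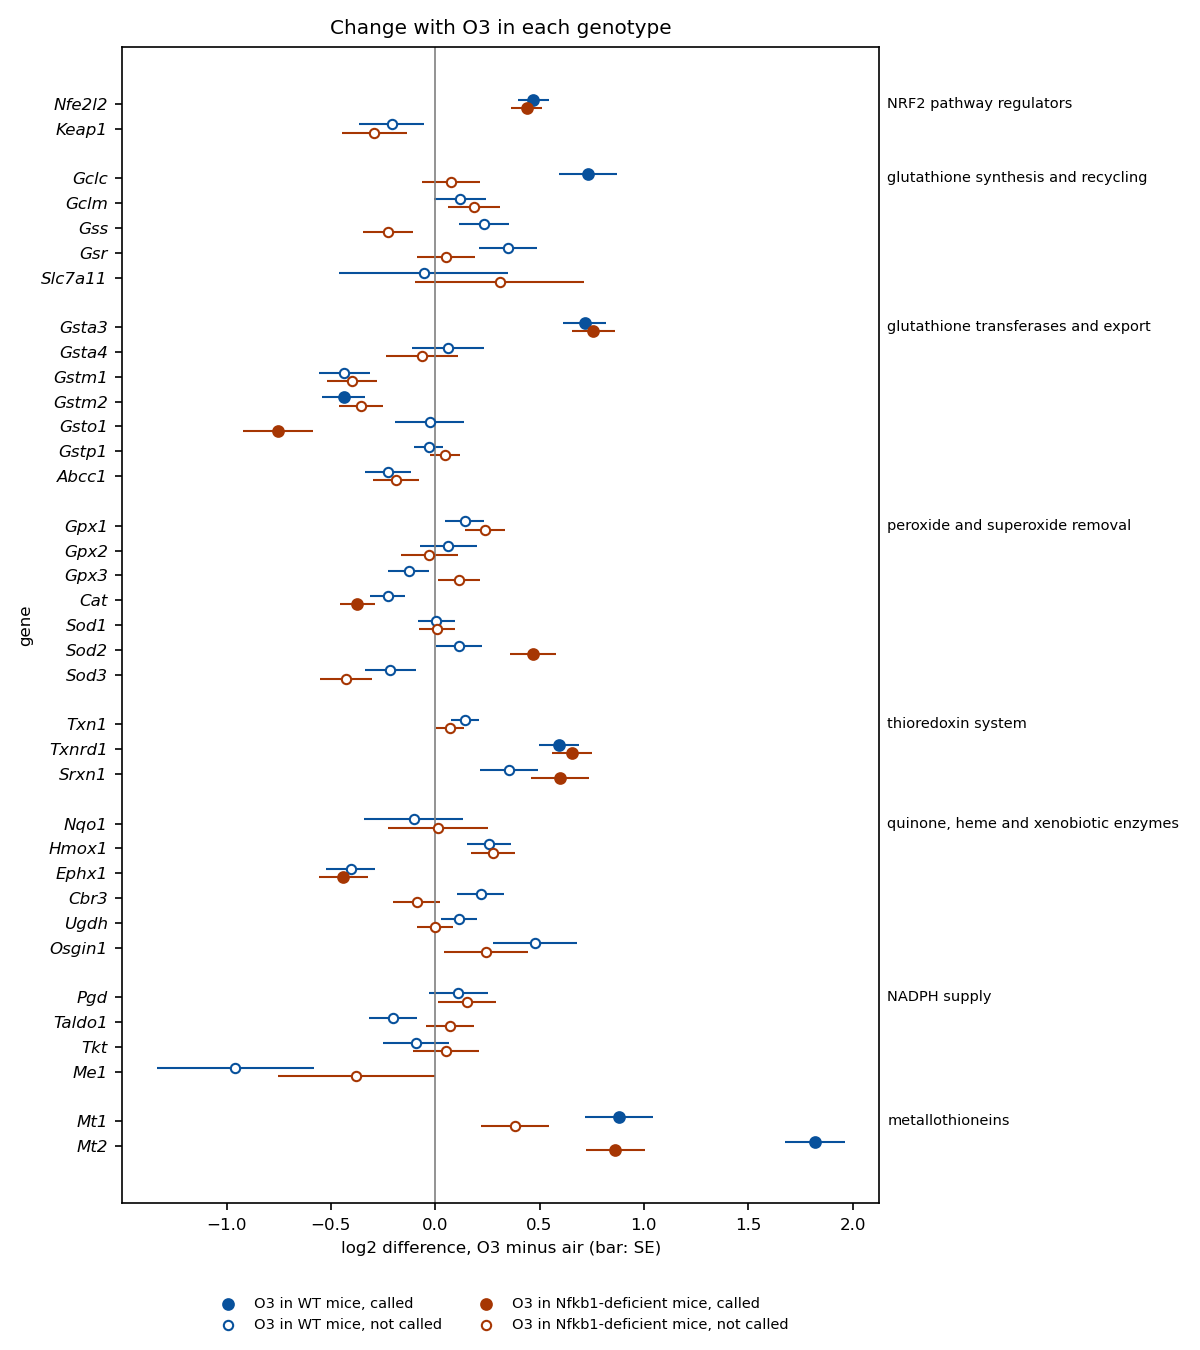
Log2 difference between O3 and air for each of the 36 measured members, by role, with the standard error of the model as a bar. Points of WT mice are blue and those of Nfkb1-deficient mice brown, and filled points passed the threshold. Mt2 lies farthest to the right, at 1.82 in WT mice and 0.86 in Nfkb1-deficient mice, and Gclc has a filled point for WT mice alone.

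Nfe2l2, the gene of NRF2 itself, rose with O3 in both genotypes. Its log2 signals were 11.95, 12.09 and 12.03 in WT-Air, 12.45, 12.48 and 12.54 in WT-O3, 12.29, 12.17 and 12.18 in Nfkb1KO-Air, and 12.78, 12.56 and 12.61 in Nfkb1KO-O3. Every O3 array lay above every air array of either genotype. The rise was 1.39-fold in WT mice (log2 0.47 ± 0.076, adjusted p = 0.0047) and 1.35-fold in Nfkb1-deficient mice (log2 0.44 ± 0.076, adjusted p = 0.0064). A second, much dimmer probe set changed the same way, by log2 1.44 and 2.09. With arrays centred on their medians the rise in WT mice was not called (adjusted p = 0.4). Without the 3 arrays of high adipocyte signal, which leaves 1 WT-Air array, the change in WT mice was not called (log2 0.41, adjusted p = 0.096), and with the mean of both probe sets it was called in neither genotype (log2 0.95, adjusted p = 0.17, and log2 1.26, adjusted p = 0.065). Keap1, the repressor of NRF2, was called in no comparison, with a log2 change of -0.21 in WT mice and -0.29 in Nfkb1-deficient mice on the chosen probe set and of 0.29 and 0.48 on its other one, so that its direction is not settled.

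Gclc, the catalytic subunit of glutamate-cysteine ligase and the rate-limiting enzyme of glutathione synthesis, rose with O3 in WT mice and was lower in Nfkb1-deficient than in WT mice after O3. The arrays read 11.71, 11.38 and 11.64 in WT-Air, 12.44, 12.39 and 12.11 in WT-O3, 11.60, 11.47 and 11.16 in Nfkb1KO-Air, and 11.35, 11.69 and 11.41 in Nfkb1KO-O3 on the log2 scale. The WT-O3 arrays stood above all 9 others, and the remaining 3 groups overlapped. The rise in WT mice was 1.66-fold (log2 0.73 ± 0.14, adjusted p = 0.01), and after O3 the signal was 1.77-fold lower in Nfkb1-deficient mice (log2 -0.83 ± 0.14, adjusted p = 0.013). In Nfkb1-deficient mice the change with O3 was not called (log2 0.08, 95% interval -0.22 to 0.37, adjusted p = 0.8), nor was the difference between genotypes in air (log2 -0.17 ± 0.14, adjusted p = 0.68). The difference between the O3 changes of the 2 genotypes was -0.66 ± 0.19 on the log2 scale, with an unadjusted p of 0.0052 and an adjusted p of 0.65, so that it did not pass over all genes.

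A second Gclc probe set behaved alike, with log2 0.93 for O3 in WT mice, -0.13 for O3 in Nfkb1-deficient mice and -1.34 for genotype after O3. The rise in WT mice was not called without WT-O3 replicate 2 (log2 0.69, adjusted p = 0.057) or with arrays centred on their medians (adjusted p = 0.15). The difference after O3 was not called without WT-O3 replicate 1, WT-O3 replicate 2, Nfkb1KO-O3 replicate 1 or Nfkb1KO-O3 replicate 3 (log2 -0.79 to -0.76, adjusted p = 0.063 to 0.093). It was not called either with arrays centred on their medians (log2 -0.74, adjusted p = 0.31).

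The other genes of glutathione synthesis and recycling were called in no comparison. Gclm, the modifier subunit that partners Gclc, had log2 signals of 10.60, 10.66 and 10.85 in WT-Air, 10.92, 10.69 and 10.86 in WT-O3, 10.63, 10.62 and 10.52 in Nfkb1KO-Air, and 10.77, 11.05 and 10.53 in Nfkb1KO-O3, and the air and O3 arrays of each genotype overlapped. Its change with O3 was 0.12 (95% interval -0.15 to 0.39) in WT mice and 0.19 (-0.08 to 0.46) in Nfkb1-deficient mice on the log2 scale. A dimmer second Gclm probe set gave 0.17 in WT mice and -0.28 in Nfkb1-deficient mice. For genotype in air the chosen probe set gave -0.11 and the second 0.47. Gclm lies within 20 Mb of Nfkb1 on chromosome 3, where the effects of the allele and of linked sequence cannot be told apart. Gsr, the reductase that regenerates reduced glutathione, was higher in Nfkb1KO-Air than in WT-Air without passing the threshold (log2 0.57 ± 0.14, adjusted p = 0.13), and the groups did not overlap. Its second probe set had a difference in air of only 0.095. The O3 changes on that probe set were 0.48 in WT mice and 0.58 in Nfkb1-deficient mice, against 0.35 and 0.05 on the chosen one. Gss, glutathione synthase, was also higher in Nfkb1KO-Air than in WT-Air without a call (log2 0.47 ± 0.12, adjusted p = 0.15), and by 0.36 on its second probe set. Slc7a11, the cystine transporter, was dim, at 4.53 to 6.002 on the log2 scale over all 12 arrays, and its largest difference had an adjusted p of 0.67.

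The glutathione transferases, which conjugate glutathione to electrophiles, moved in different directions. Gsta3, an alpha class enzyme, rose with O3 in both genotypes. On the log2 scale it measured 11.75, 11.91 and 11.97 in WT-Air, 12.76, 12.57 and 12.44 in WT-O3, 12.22, 12.13 and 12.10 in Nfkb1KO-Air, and 12.997, 13.01 and 12.72 in Nfkb1KO-O3. All 6 O3 arrays lay above all 6 air arrays. The rise was 1.64-fold in WT mice (log2 0.72 ± 0.10, adjusted p = 0.0028) and 1.69-fold in Nfkb1-deficient mice (log2 0.76 ± 0.10, adjusted p = 0.0022). With arrays centred on their medians the rise in WT mice was not called (adjusted p = 0.19). A dimmer second probe set had O3 values of 0.45 in WT mice and 0.15 in Nfkb1-deficient mice on the log2 scale, and with the mean of both the change in Nfkb1-deficient mice was not called (adjusted p = 0.054). Neither was the change in WT mice without the 3 arrays of high adipocyte signal (log2 0.68, adjusted p = 0.054).

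Gstm2, a mu class enzyme, fell with O3 in WT mice. Log2 signals were 12.07, 12.30 and 12.17 in WT-Air, 11.88, 11.76 and 11.58 in WT-O3, 12.15, 12.38 and 12.10 in Nfkb1KO-Air, and 11.82, 11.98 and 11.77 in Nfkb1KO-O3. In each genotype the O3 arrays lay below the air arrays. The fall was 1.36-fold in WT mice (log2 -0.44 ± 0.10, adjusted p = 0.03), and the difference in Nfkb1-deficient mice was close in size and not called (log2 -0.35 ± 0.10, adjusted p = 0.064). The call in WT mice was lost without WT-Air replicate 2, WT-Air replicate 3, WT-O3 replicate 2 or WT-O3 replicate 3 (log2 -0.45 to -0.36, adjusted p = 0.076 to 0.12). It was also lost with arrays centred on their medians. Gstm1, its neighbour in the same gene cluster, had differences of -0.43 and -0.40 with adjusted p of 0.057 and 0.071, and its 4 probe sets all had negative values in both genotypes. The mu class sequences are close relatives and some of these probe sets are marked by the manufacturer as able to bind related transcripts, so that the members of the class may not be fully separated.

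Gsto1, an omega class transferase with thiol transferase and dehydroascorbate reductase activity, was the only member called between genotypes in air. Its signals on the log2 scale were 13.03, 12.30 and 12.60 in WT-Air, 12.59, 12.71 and 12.55 in WT-O3, 13.90, 13.69 and 13.88 in Nfkb1KO-Air, and 12.99, 13.38 and 12.84 in Nfkb1KO-O3. The Nfkb1KO-Air arrays stood above all 9 others. The signal was 2.27-fold higher in Nfkb1-deficient mice in air (log2 1.18 ± 0.17, adjusted p = 0.0098) and fell 1.69-fold with O3 in these mice (log2 -0.75 ± 0.17, adjusted p = 0.021). In WT mice the difference with O3 was -0.03 (95% interval -0.39 to 0.34), and after O3 the genotypes differed by 0.46 (adjusted p = 0.35), again without overlap.

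The chosen Gsto1 probe set carries the manufacturer's mark for possible binding to related sequences, and the other probe set, which has no such mark, gave log2 1.36 in air and -0.83 for O3 in Nfkb1-deficient mice. The difference in air lost its call without Nfkb1KO-Air replicate 1 or Nfkb1KO-Air replicate 3 (log2 1.14 to 1.16, adjusted p = 0.054 in both fits) and with arrays centred on their medians (log2 0.89, adjusted p = 0.37). The fall with O3 lost its call without Nfkb1KO-Air replicate 1, Nfkb1KO-Air replicate 3, Nfkb1KO-O3 replicate 1 or Nfkb1KO-O3 replicate 3 (log2 -0.73 to -0.64, adjusted p = 0.06 to 0.087). Neutrophil markers (9 of 11 measured, 1 of them, S100a8, higher in Nfkb1-deficient mice in air and 2, S100a8 and S100a9, after O3) summed to 2230 to 9730 in WT-Air, 7330 to 10500 in Nfkb1KO-Air, 3450 to 9960 in Nfkb1KO-O3 and 1990 to 4090 in WT-O3, and their part in the Gsto1 result was not tested.

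Gsta4, Gstp1 and the exporter Abcc1, which pumps glutathione conjugates out of cells, were called in no comparison. The O3 changes of these 3 genes ran from -0.23 to 0.06 in WT mice and from -0.19 to 0.05 in Nfkb1-deficient mice. Gsta4, whose product clears 4-hydroxynonenal, was higher in all 3 Nfkb1KO-Air arrays than in any WT-Air array, without a call (log2 0.46 ± 0.17, adjusted p = 0.34). All 7 members of this role had a positive genotype difference in air and after O3, as did 30 and 28 of all 36 members. Of all 17569 genes, 8529 were positive in air and 8876 after O3. The direction in air depended on the scaling, and with arrays centred on their medians 12 of the 36 members were positive.

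Among the enzymes that remove superoxide and peroxides, Sod2 rose and Cat fell in Nfkb1-deficient mice. Sod2, the manganese superoxide dismutase of mitochondria and a textbook target of NF-κB, had log2 signals of 12.24, 12.07 and 12.44 in WT-Air, 12.43, 12.36 and 12.31 in WT-O3, 12.07, 12.28 and 12.15 in Nfkb1KO-Air, and 12.53, 12.85 and 12.52 in Nfkb1KO-O3. The Nfkb1KO-O3 arrays lay above all others, and WT-Air overlapped both WT-O3 and Nfkb1KO-Air. The rise in Nfkb1-deficient mice was 1.38-fold (log2 0.47 ± 0.11, adjusted p = 0.028), and the change in WT mice was not called (log2 0.12 ± 0.11, adjusted p = 0.63). The O3 changes of the 2 genotypes differed by 0.35 (adjusted p = 0.81). All 4 Sod2 probe sets had positive values in Nfkb1-deficient mice, of 0.19 to 0.79. The call was lost without Nfkb1KO-Air replicate 1, Nfkb1KO-Air replicate 3, Nfkb1KO-O3 replicate 1 or Nfkb1KO-O3 replicate 2 (log2 0.36 to 0.52, adjusted p = 0.06 to 0.096), and the value with arrays centred on their medians was 0.94 (adjusted p = 0.072), where the median of all genes was 0.25.

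Cat, catalase of the peroxisome, had log2 signals of 13.51, 13.46 and 13.41 in WT-Air, 13.33, 13.20 and 13.16 in WT-O3, 13.80, 13.45 and 13.62 in Nfkb1KO-Air, and 13.24, 13.22 and 13.29 in Nfkb1KO-O3. The O3 arrays of each genotype lay below its air arrays. The fall in Nfkb1-deficient mice was 1.29-fold (log2 -0.37 ± 0.085, adjusted p = 0.024), the change in WT mice was not called (log2 -0.23 ± 0.085, adjusted p = 0.15), and with arrays centred on their medians the value in Nfkb1-deficient mice turned to 0.088 (adjusted p = 0.85), below the median of all genes in that scaling, 0.25. The call was also lost without Nfkb1KO-Air replicate 1, Nfkb1KO-Air replicate 3, Nfkb1KO-O3 replicate 1 or Nfkb1KO-O3 replicate 2 (log2 -0.38 to -0.29, adjusted p = 0.059 to 0.084).

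Gpx1, Gpx2, Gpx3, Sod1 and Sod3 were called in no comparison. Their O3 changes ran from -0.22 to 0.14 in WT mice and from -0.43 to 0.24 in Nfkb1-deficient mice. Sod3, the extracellular superoxide dismutase of the vessel wall and interstitium, was lower in all 3 Nfkb1KO-O3 arrays than in any Nfkb1KO-Air array, at an adjusted p of 0.061 (log2 -0.43). Gpx3, the secreted glutathione peroxidase, was the member of this role with the smallest p in air (log2 -0.34, adjusted p = 0.21), and was lower in all 3 Nfkb1KO-Air arrays than in any WT-Air array.

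The thioredoxin system keeps protein thiols and peroxiredoxins reduced, and 2 of its 3 members rose. Txnrd1, the cytosolic thioredoxin reductase, had log2 signals of 11.13, 11.19 and 11.23 in WT-Air, 11.90, 11.83 and 11.60 in WT-O3, 11.34, 11.27 and 11.05 in Nfkb1KO-Air, and 11.88, 11.90 and 11.86 in Nfkb1KO-O3. All 6 O3 arrays lay above all 6 air arrays. The rise was 1.51-fold in WT mice (log2 0.59 ± 0.095, adjusted p = 0.0046) and 1.57-fold in Nfkb1-deficient mice (log2 0.66 ± 0.095, adjusted p = 0.0031), and both other probe sets had larger O3 values in each genotype, of 1.06 to 1.34. In Nfkb1-deficient mice the call was kept in all 24 alternative settings. In WT mice it was lost with arrays centred on their medians (log2 0.68, adjusted p = 0.22) and without the 3 arrays of high adipocyte signal (log2 0.58, adjusted p = 0.091).

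Srxn1, sulfiredoxin, which repairs overoxidised peroxiredoxins, rose in Nfkb1-deficient mice. Log2 signals were 8.997, 8.995 and 9.05 in WT-Air, 9.34, 9.42 and 9.34 in WT-O3, 9.38, 9.14 and 9.17 in Nfkb1KO-Air, and 9.97, 10.02 and 9.49 in Nfkb1KO-O3. The O3 arrays exceeded the air arrays in each genotype. The rise was 1.51-fold in Nfkb1-deficient mice (log2 0.60 ± 0.14, adjusted p = 0.025), and the difference in WT mice did not pass (log2 0.35 ± 0.14, adjusted p = 0.17). The 4 Srxn1 probe sets all had positive O3 values, of 0.35 to 0.99 in WT mice and 0.60 to 1.05 in Nfkb1-deficient mice. The call was lost without Nfkb1KO-Air replicate 2, Nfkb1KO-Air replicate 3, Nfkb1KO-O3 replicate 1 or Nfkb1KO-O3 replicate 2 (log2 0.50 to 0.57, adjusted p = 0.062 to 0.11). Txn1, thioredoxin, varied from 13.45 to 13.71 over the 12 arrays and was not called, with an O3 change of 0.14 in WT mice and 0.07 in Nfkb1-deficient mice.

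Of the 6 quinone, heme and xenobiotic enzymes, only Ephx1 was called. Ephx1, microsomal epoxide hydrolase, had log2 signals of 12.02, 12.20 and 12.11 in WT-Air, 11.88, 11.49 and 11.74 in WT-O3, 12.41, 12.35 and 12.04 in Nfkb1KO-Air, and 11.81, 11.95 and 11.72 in Nfkb1KO-O3. The O3 arrays of each genotype lay below its air arrays. The fall was 1.36-fold in Nfkb1-deficient mice (log2 -0.44 ± 0.12, adjusted p = 0.047), and the WT difference, -0.41, had an adjusted p of 0.07. This call was the least stable of the set. It was lost in 9 of the 12 fits that left out 1 array (adjusted p = 0.052 to 0.15; all but those without WT-O3 replicates 1 and 2 and Nfkb1KO-Air replicate 3), and with arrays centred on their medians the value was 0.035 (adjusted p = 0.95), below the median of all genes of 0.25.

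Nqo1 and Hmox1, which are common readouts of NRF2 activity, were not called with O3. The log2 signals of Hmox1, heme oxygenase, were 9.08, 9.41 and 9.28 in WT-Air, 9.43, 9.55 and 9.56 in WT-O3, 9.47, 9.46 and 9.40 in Nfkb1KO-Air, and 9.73, 9.75 and 9.67 in Nfkb1KO-O3. They were higher after O3 than in air in each genotype without overlap, by 0.26 and 0.28 (adjusted p = 0.19 and 0.15). Nqo1, the NADPH quinone reductase, had values of 8.07, 7.90 and 7.95 in WT-Air, 7.80, 7.90 and 7.90 in WT-O3, 8.91, 8.08 and 7.93 in Nfkb1KO-Air, and 7.98, 8.54 and 8.45 in Nfkb1KO-O3. The air and O3 arrays of each genotype overlapped, the O3 change in WT mice was -0.10 (95% interval -0.62 to 0.41), and that in Nfkb1-deficient mice was 0.01 (-0.50 to 0.53). Cbr3, a carbonyl reductase, Ugdh, which makes UDP-glucuronic acid, and Osgin1, an oxidative stress response gene, had O3 changes of 0.11 to 0.48 in WT mice and -0.09 to 0.24 in Nfkb1-deficient mice, and none was called.

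No gene of NADPH supply was called among the 4 measured, Pgd, Taldo1, Tkt and Me1. Me1, malic enzyme, which is also abundant in fat, had log2 signals of 12.12, 10.92 and 12.70 in WT-Air, 10.92, 10.71 and 11.25 in WT-O3, 12.36, 12.41 and 11.74 in Nfkb1KO-Air, and 11.52, 12.37 and 11.48 in Nfkb1KO-O3. The values of 1 group spread by up to 1.79, more than those of any other measured member. The O3 change was -0.96 in WT mice (adjusted p = 0.17) and -0.38 in Nfkb1-deficient mice (adjusted p = 0.61). The adipocyte markers summed to 39100, 4040 and 48100 in WT-Air, 12700, 7540 and 6600 in WT-O3, 22000, 23900 and 13200 in Nfkb1KO-Air, and 14500, 51600 and 2370 in Nfkb1KO-O3. The array with the most adipocyte signal had the highest Pgd, Taldo1, Tkt and Me1 of its group in WT-Air and in Nfkb1KO-O3. In Nfkb1KO-Air it had the highest Me1 and Taldo1 but the lowest Tkt, and in WT-O3 the array with the least adipocyte signal had the highest value of each of the 4 genes. Without the 3 arrays of high adipocyte signal, which leaves WT-Air with the 1 array of least adipocyte signal in that group, the change of Me1 was 0.04 in WT mice and -0.66, farther from 0, in Nfkb1-deficient mice, and its genotype difference in air moved from 0.25 to 1.24 (adjusted p = 0.062). The part of fat tissue in these values was not tested.

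**Figure D2:**
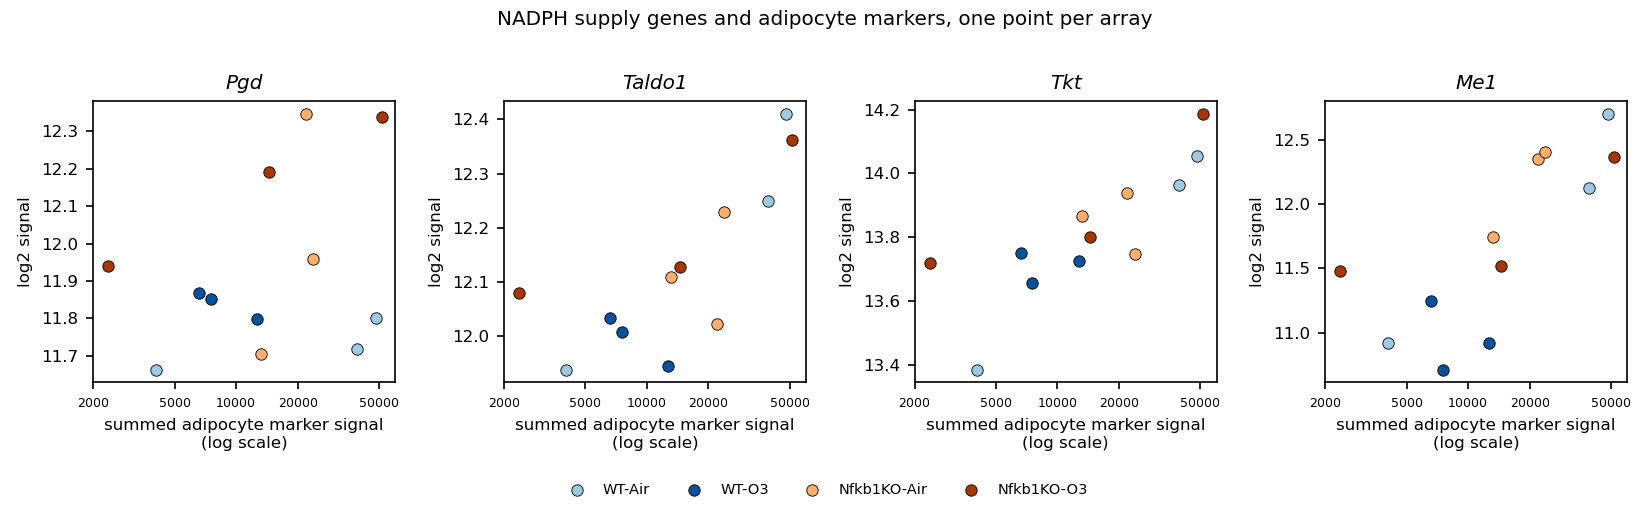
Log2 signal of the 4 measured NADPH supply genes against the summed signal of 7 adipocyte markers on a log scale, with 1 point per array coloured by group. The 3 arrays above 30000 on the x axis are WT-Air replicates 1 and 3 and Nfkb1KO-O3 replicate 2, and Me1 lies between 12.12 and 12.70 in them.

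Mt2, a metallothionein, had the largest O3 change among the 36 members in each genotype. The 12 log2 signals were 11.07, 10.89 and 11.18 in WT-Air, 12.91, 13.06 and 12.64 in WT-O3, 11.91, 11.84 and 11.53 in Nfkb1KO-Air, and 12.50, 12.49 and 12.89 in Nfkb1KO-O3. All 6 O3 arrays lay above all 6 air arrays, and the Nfkb1KO-Air arrays lay above the WT-Air arrays. Mt2 rose 3.53-fold with O3 in WT mice (log2 1.82 ± 0.14, adjusted p = 4.4e-05) and 1.82-fold in Nfkb1-deficient mice (log2 0.86 ± 0.14, adjusted p = 0.0055), and both calls were kept in all 24 alternative settings. In air the signal in Nfkb1-deficient mice exceeded that in WT mice by 0.71 ± 0.14, which missed the threshold (adjusted p = 0.065), and was called when Nfkb1KO-O3 replicate 3 was left out (log2 0.71, adjusted p = 0.048). After O3 the genotypes differed by -0.24 (95% interval -0.55 to 0.07, adjusted p = 0.65). The O3 change was smaller in Nfkb1-deficient mice by 0.96 on the log2 scale (interaction -0.96 ± 0.20), with an unadjusted p of 0.00043 and an adjusted p of 0.29.

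Mt1, the neighbouring metallothionein gene on chromosome 8, had log2 signals of 12.17, 11.75 and 12.44 in WT-Air, 13.11, 13.07 and 12.82 in WT-O3, 12.69, 12.71 and 12.27 in Nfkb1KO-Air, and 12.84, 13.06 and 12.91 in Nfkb1KO-O3. In WT mice the O3 arrays lay above the air arrays and the rise was 1.84-fold (log2 0.88 ± 0.16, adjusted p = 0.0095). In Nfkb1-deficient mice the O3 arrays also lay above the air arrays, by 0.38 on average, without a call (adjusted p = 0.19). The call in WT mice was lost without WT-O3 replicate 2 (log2 0.84, adjusted p = 0.052) and with arrays centred on their medians (adjusted p = 0.12). The chosen Mt1 probe set is one that the manufacturer marks as shared between transcripts, and a second, dim probe set gave 1.14 and 0.53 for the same 2 comparisons.

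**Figure D3:**
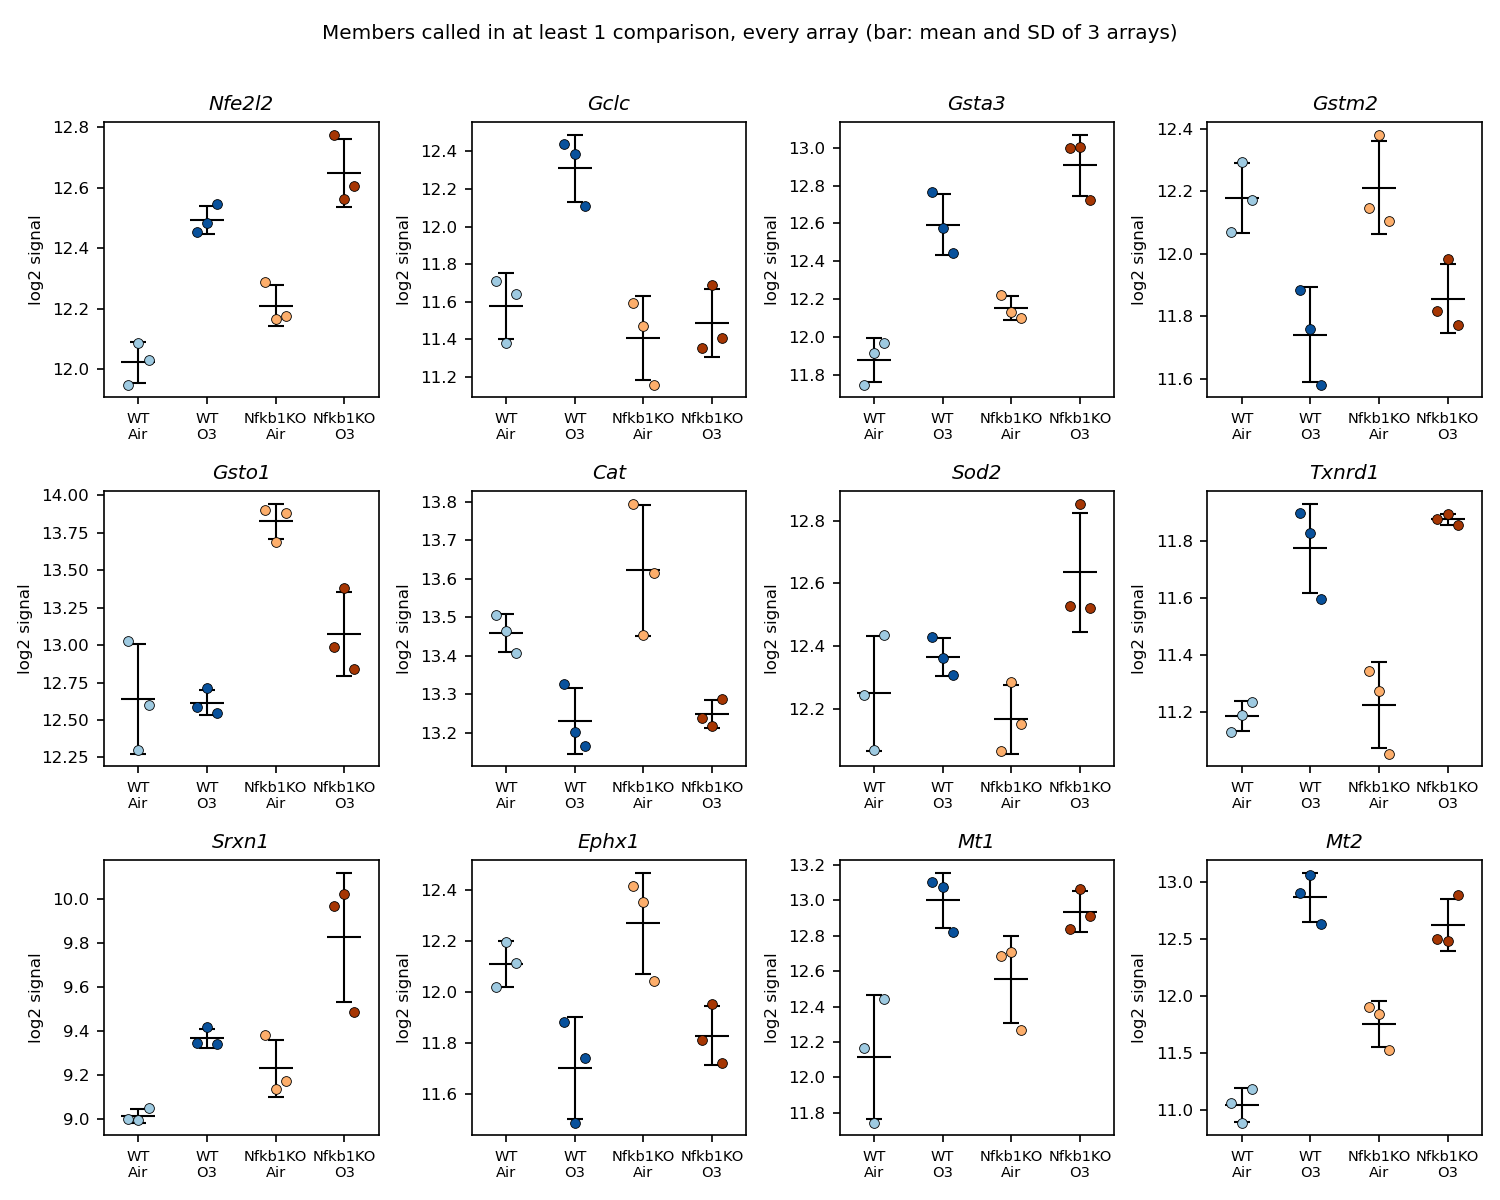
Log2 signal in each of the 12 arrays for the 12 members called in at least 1 comparison, with the mean and SD of the 3 arrays of a group as black bars. Each panel has its own axis. The WT-O3 points of Gclc lie at 12.11 to 12.44, above all other groups, and the Nfkb1KO-Air points of Gsto1 lie at 13.69 to 13.90.

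Between genotypes, few members passed the threshold for a call. In air 1 of 36 was higher in Nfkb1-deficient mice, Gsto1, and 0 were lower, where 0.342% of all genes were called (0.256% as higher and 0.0854% as lower). After O3, 0 were higher and 1 was lower, Gclc, where 0.723% of all genes were called (0.552% as higher and 0.171% as lower). At an unadjusted p under 0.05 the counts were 11 members in air and 8 after O3, against 11.3% and 9.43% of all genes. In air the genotypes did not overlap for 9 members higher and 1 lower in Nfkb1-deficient mice, where 6.63% and 7.26% of all genes did so, and after O3 for 13 higher and 2 lower, where 9.31% and 9.76% did so. The difference was positive for 30 of 36 members in air and 28 of 36 after O3, with medians of 0.17 and 0.14 against -0.01 and 0.003 over all genes. In air the direction depended on the scaling. With arrays centred on their medians, 12 of 36 were positive and the median was -0.12, where that of all genes was -0.20, and with the deposited scaling alone 23 of 36 were positive. Nfkb1KO-Air replicate 1 is the array with the high median signal described above.

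**Figure D4:**
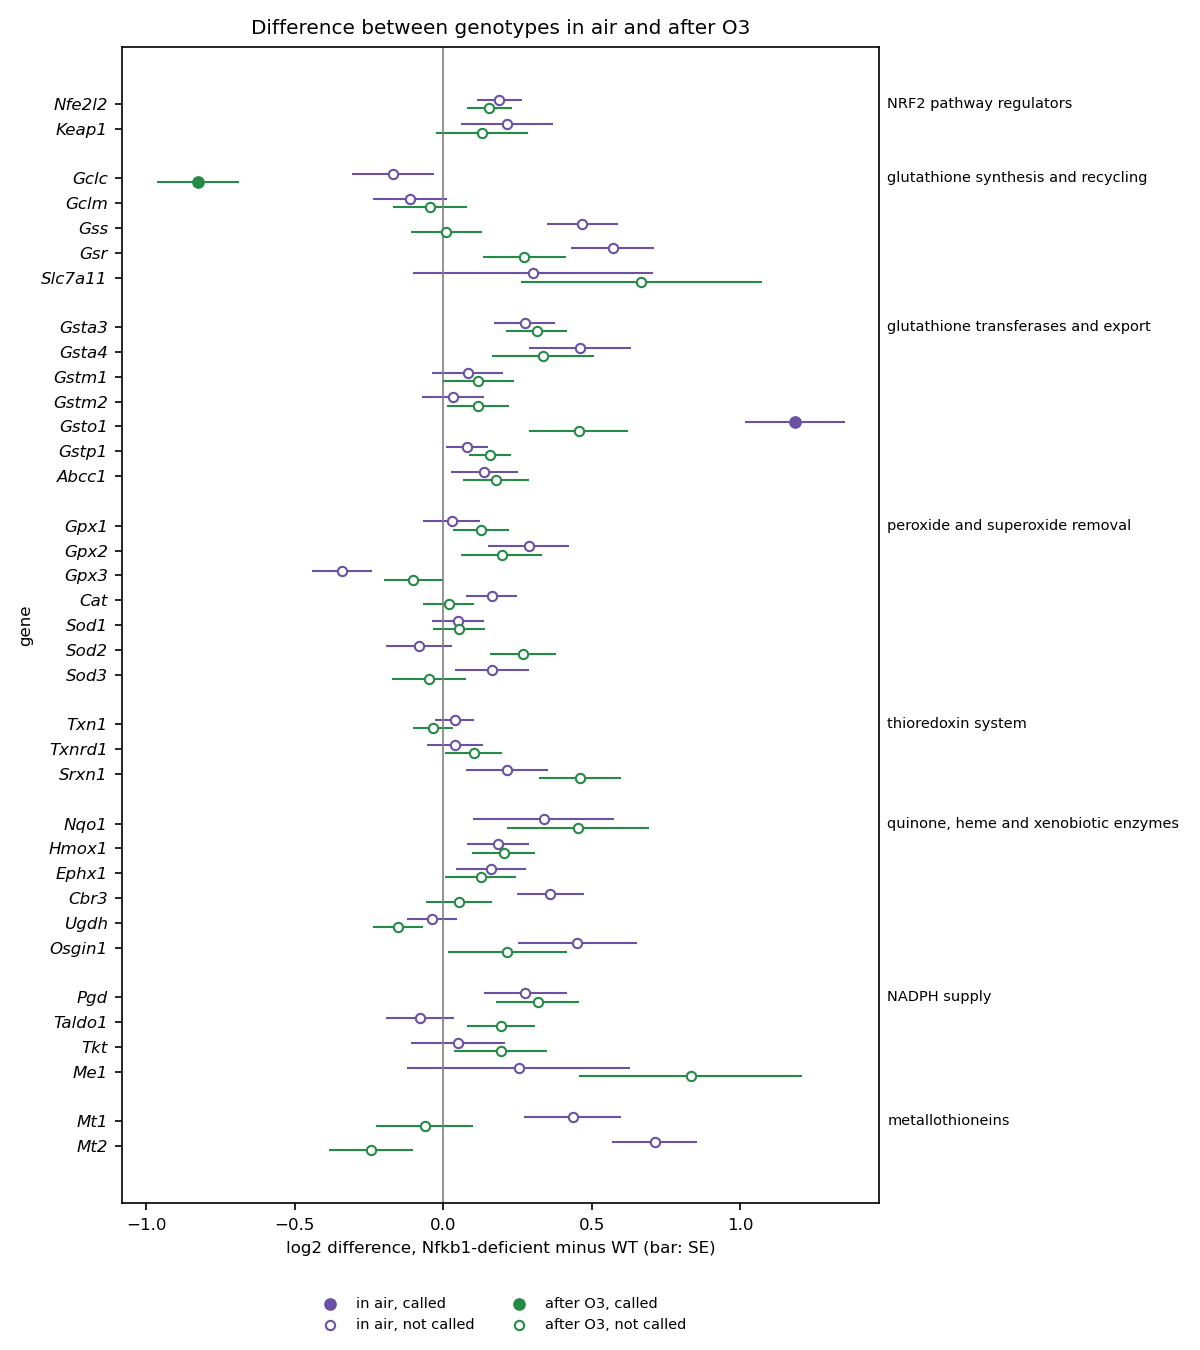
Log2 difference between Nfkb1-deficient and WT mice for the 36 measured members, in air (purple) and after O3 (green), with the standard error of the model as a bar. Filled points passed the threshold, and there are 2 of them, Gsto1 in air at 1.18 and Gclc after O3 at -0.83.

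The O3 changes of the 2 genotypes were compared directly as an interaction. A negative value is a lower O3 change, counted with its sign, in Nfkb1-deficient than in WT mice. No member was called by limma, where 0.0342% of all genes were called. At an unadjusted p under 0.05 there were 5 members (Gclc, Gss, Gsto1 and Mt2, with negative values of -0.46 to -0.96, and Sod2, with a positive value of 0.35), against 6.06% of all genes. Each group enters several of these comparisons, which are therefore not independent. For Gclc, Gstm2, Mt1, Gsto1, Cat, Sod2, Srxn1 and Ephx1, O3 was called in 1 genotype alone. The difference between the O3 changes of the genotypes thus passed no test for these genes. Without the 3 arrays of high adipocyte signal, Gsto1 passed with an interaction of -1.22 (adjusted p = 0.015), a fit in which WT-Air rests on 1 array that is assumed to vary like the others.

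Other genes of the same pathways were taken from a list of 112 symbols, of which 104 were measured. In WT mice 8 rose and 1 fell with O3, and in Nfkb1-deficient mice 10 rose and 3 fell. In air 0 were higher and 1 was lower in Nfkb1-deficient mice, after O3 1 was higher and 1 lower, and in the interaction limma called 0, with 9 at an unadjusted p under 0.05. The shares of all genes called in these comparisons are those given above. Over the 104 genes the median O3 change was -0.06 in WT mice and 0.05 in Nfkb1-deficient mice.

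Among 8 partners and regulators of NRF2, Maff and Cul3 rose in both genotypes. Maff, a small MAF protein that pairs with NRF2, rose 1.91-fold in WT mice (log2 0.93 ± 0.11, adjusted p = 0.00068) and 2-fold in Nfkb1-deficient mice (log2 1.001 ± 0.11, adjusted p = 0.00093), from log2 signals of 9.18 to 9.30 in all 6 air arrays to 9.97 to 10.33 in all 6 O3 arrays. Cul3, the scaffold of the ligase that ubiquitinates NRF2 with KEAP1, rose 1.37-fold and 1.28-fold. With the mean of all its probe sets the Cul3 values were 0.12 and -0.003 and neither was called.

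Of 17 further glutathione transferases, 1 rose in both genotypes and none fell. Mgst3, a microsomal enzyme with glutathione transferase and peroxidase activity, rose 2.07-fold in WT mice (log2 1.05 ± 0.15, adjusted p = 0.0028) and 2.02-fold in Nfkb1-deficient mice (log2 1.01 ± 0.15, adjusted p = 0.0032). Of 15 genes of glutathione turnover and transport, Ggct, which releases 5-oxoproline from gamma-glutamyl peptides, rose 1.55-fold in Nfkb1-deficient mice (adjusted p = 0.048), a call lost in 18 of 24 alternative settings. Glo1, glyoxalase 1, which uses glutathione to detoxify methylglyoxal, was 1.73-fold lower in Nfkb1-deficient mice in air (log2 -0.79 ± 0.14, adjusted p = 0.033). Its log2 signals were 11.46, 11.89 and 11.42 in WT-Air, 11.71, 11.66 and 11.56 in WT-O3, 10.63, 11.04 and 10.73 in Nfkb1KO-Air, and 10.87, 11.14 and 10.94 in Nfkb1KO-O3. All 6 arrays of Nfkb1-deficient mice lay below all 6 arrays of WT mice, with a difference after O3 of -0.66 (adjusted p = 0.052), and the call in air was lost in 8 of the fits that left out 1 array (adjusted p = 0.05 to 0.12).

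In the thioredoxin and glutaredoxin system, 12 genes were measured. Glrx, the cytosolic glutaredoxin that uses glutathione to reduce mixed disulfides, rose 1.68-fold in WT mice (adjusted p = 0.015) and 1.82-fold in Nfkb1-deficient mice (adjusted p = 0.0073). Sesn1, a sestrin, fell 1.52-fold and 1.35-fold in the same order. The call in Nfkb1-deficient mice was lost in 12 of 24 settings, 5 of them with 1 array left out, and the value was -0.01 with arrays centred on their medians. Among 15 further peroxidases and dismutases, Msrb1, a selenium-dependent methionine sulfoxide reductase, was 1.4-fold higher in Nfkb1-deficient mice after O3 (adjusted p = 0.047), a call lost in 15 of 24 settings. Gpx5 fell with O3 in Nfkb1-deficient mice by at least 2.37-fold (adjusted p = 0.05), from log2 signals of 5.23 to 6.14 to values under 4.37, the 20th percentile of signals, in all 3 arrays, and this call was lost in 17 of 23 settings.

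Of 18 further quinone, heme, iron and xenobiotic genes, Akr1b8, an aldo-keto reductase, rose 2.17-fold in WT mice (log2 1.12 ± 0.12, adjusted p = 0.00051) and 1.64-fold in Nfkb1-deficient mice (log2 0.71 ± 0.12, adjusted p = 0.0061), with both calls kept in all 24 settings. Blvra, biliverdin reductase, which acts after heme oxygenase, rose 1.49-fold in Nfkb1-deficient mice (adjusted p = 0.04), a call lost in 14 of 24 settings. Of 11 further NADPH genes, H6pd, the hexose-6-phosphate dehydrogenase of the endoplasmic reticulum, fell 1.3-fold in Nfkb1-deficient mice (adjusted p = 0.048). This call was lost in 15 of 24 settings, 8 of them with 1 array left out, and in 1 more, with arrays centred on their medians, the value turned to 0.08.

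Metal transporters moved beside the metallothioneins. Of 8 genes of metal handling, 3 importers of zinc rose in both genotypes. Slc39a14 rose 1.91-fold in WT mice (log2 0.94 ± 0.22, adjusted p = 0.029) and 2.3-fold in Nfkb1-deficient mice (log2 1.20 ± 0.22, adjusted p = 0.0084). Slc39a10 rose 1.33-fold and 1.54-fold, and Slc39a8 rose 1.26-fold and 1.34-fold. In WT mice these 3 calls were lost in 9, 10 and 17 of 24 settings, and in Nfkb1-deficient mice in 1, 0 and 6. Slc30a1, the zinc exporter of the plasma membrane and an MTF-1 target, was 1.78-fold lower in Nfkb1-deficient mice after O3 (log2 -0.83 ± 0.14, adjusted p = 0.015) and lower without a call in air (log2 -0.69, adjusted p = 0.07). The log2 signals were 10.82, 11.22 and 10.71 in WT-Air, 11.18, 10.99 and 11.27 in WT-O3, 10.03, 10.36 and 10.28 in Nfkb1KO-Air, and 10.48, 10.18 and 10.28 in Nfkb1KO-O3. All 6 arrays of Nfkb1-deficient mice lay below all 6 arrays of WT mice, and the call after O3 was lost without WT-O3 replicate 1 or 3 or Nfkb1KO-O3 replicate 2 or 3 (log2 -0.82 to -0.77, adjusted p = 0.063 to 0.084).

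**Figure D5:**
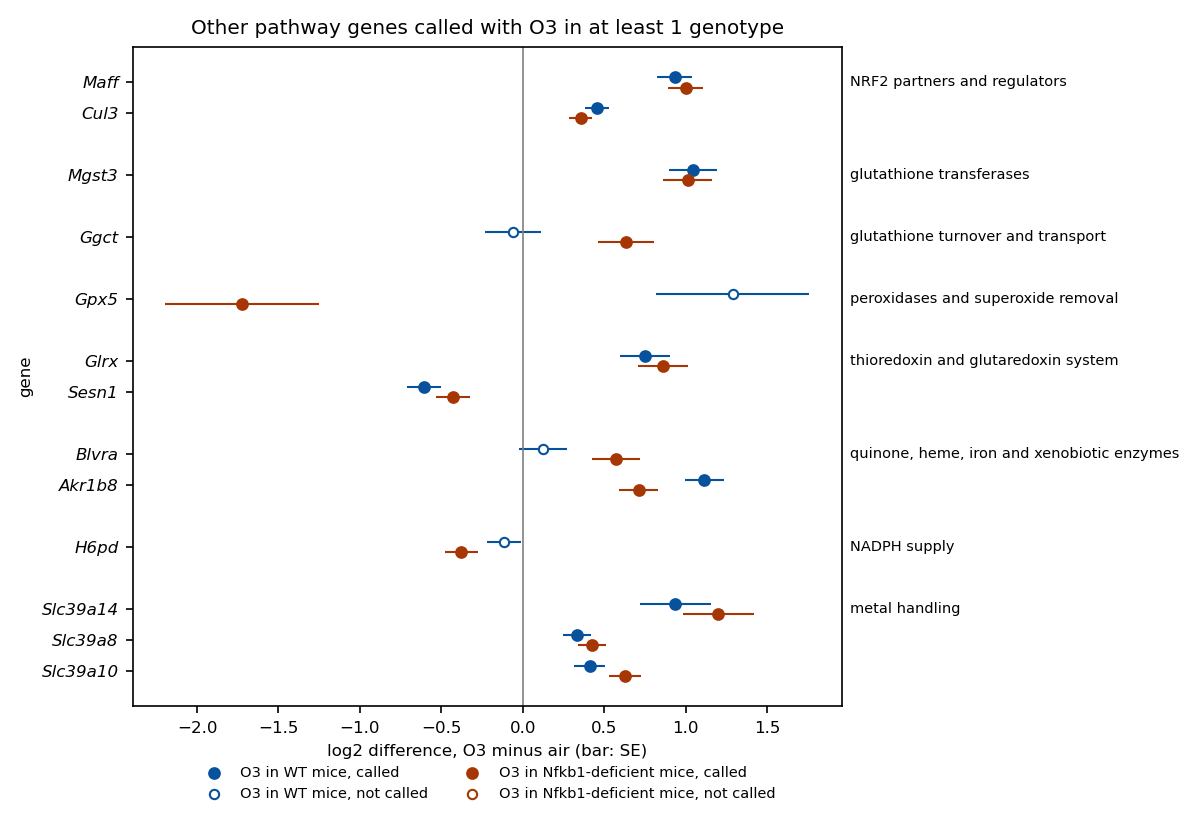
Log2 difference between O3 and air for the 13 other pathway genes called with O3 in at least 1 genotype, with the standard error of the model as a bar. Filled points passed the threshold. In 9 of the 13 genes both points are filled and lie on the same side of 0, and Gpx5, whose Nfkb1KO-O3 signals were below the 20th percentile, has open and filled points on opposite sides.

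Marker genes of lung cell types also moved with O3, where 5.4% of all genes were called in WT mice and 6.18% in Nfkb1-deficient mice. Of 10 ciliated cell markers, all measured, 1 fell in WT mice and 5 fell in Nfkb1-deficient mice. In air all 10 had a positive genotype difference, 0 of them called and 5 without overlap, where 6.63% of all genes were higher without overlap. The summed signal of the ciliated markers was 14600 to 16200 in WT-Air, 13500 to 16900 in WT-O3, 17800 to 22000 in Nfkb1KO-Air and 14000 to 17000 in Nfkb1KO-O3. Of the 10 measured alveolar macrophage markers (12 listed), 2 rose in WT mice and 3 in Nfkb1-deficient mice, and the sums were 21300 to 23100, 27000 to 28900, 21600 to 25200 and 27600 to 28700 in the same order of groups. Of 9 endothelial markers, all measured, 1 fell in WT mice and 3 in Nfkb1-deficient mice, with sums of 41400 to 58500, 42700 to 44200, 43200 to 45900 and 33200 to 42600. Club cells are airway epithelial cells rich in xenobiotic enzymes, and of their 9 markers limma called 0 in any of the 5 comparisons (1 or 2 at an unadjusted p under 0.05), with overlapping sums of 138000 to 162000, 125000 to 157000, 152000 to 163000 and 132000 to 164000. Every measured marker of these lists was above the 20th percentile of signals in at least 1 array, because the filter kept no others. The part of these cell types in the changes of the members was not tested.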

How the data were processed

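Total RNA from left lungs was labelled with biotin and hybridised, 1 mouse per array. The authors deposited 1 linear intensity per probe set and array, from MAS5 in Affymetrix Expression Console (versions not given in the sources used here) with a trimmed mean of 500 per array. Detection calls were not used, and precision is limited by the number of arrays.

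Of 45101 probe sets, 64 controls were set aside. Signals under 1 were raised to 1, log2 transformed and quantile normalised. Probe sets above the 20th percentile (log2 4.37) in at least 1 array were kept, as in the methods of the study, and 1 probe set per gene gave 17569 genes. All 12 arrays entered 1 linear model of the 4 group means in limma 3.58.1 (R 4.3.3), with a mean-dependent trend and Benjamini-Hochberg adjustment over all genes. The threshold for a call was an adjusted p under 0.05. Groups came from the sample labels, n is 3 arrays per group, and errors are standard errors of the model. Two-sided p-values came from moderated t-tests of differences between group means, judged against the spread between arrays of a group, 1 mouse each. A fold against a group with signals under log2 4.37 was taken against that level. Probe sets were named from the platform annotation, in which 34958 had 1 symbol, 932 several and 9211 none.

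Members called in any comparison are given array by array, together with Gclc. The other members are given by role with at most 2 examples chosen by p, and other pathway genes with at most 4 per list. The values of Gclm, Nqo1, Hmox1 and Me1 were added after they were seen. Members, lists and motifs were chosen with earlier results of these data known. Alternatives changed the scaling, floor, filter, probe set rule, trend, array weights, replicate block and the arrays used, and the removal of 3 arrays of high adipocyte signal was chosen after seeing the data. The linear model was run on simulated data for O3 in WT mice alone. The scaling, the filter and the choice of probe sets were not tested in this way. Same-numbered arrays of different groups did not deviate together (correlations of -0.166 to 0.107), so the numbers were not used as pairs.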

Additional observations from a re-analysis of the deposited data

How the results depend on the processing

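The 18 called results of members were recomputed in 24 other settings each, 432 in all, of which 347 kept the call, 83 kept the direction without the call and 2 turned direction. The 2 that turned were Cat (0.088) and Ephx1 (0.035) for O3 in Nfkb1-deficient mice, with arrays centred on their medians. Mt2 with O3 in both genotypes and Txnrd1 with O3 in Nfkb1-deficient mice kept their calls in every setting. The number of members called for genotype in air was 1. It was 0 with centred arrays, without the trend, without WT-Air replicate 3 and Nfkb1KO-Air replicate 1 together, and in an ordinary t-test after adjustment. The shares of all genes called in the first 3 of these were 0.0512%, 0.074% and 0.183%, and the t-test called 0 genes. The shares in the main fit are those given above. The count was 9 in that t-test at an unadjusted p under 0.05, where 6.73% of all genes passed. The study's methods name a t-test at this threshold, and the note to its gene list names a moderated t-test. Counts without the 3 arrays of high adipocyte signal are not given for comparisons with WT-Air, which then rests on 1 array. For genotype after O3 the count was 1, and was 0 with centred arrays and without the trend. For O3 in WT mice the count was 7, where 5.4% of all genes were called, and was 1 with centred arrays, where 0.495% were called. For O3 in Nfkb1-deficient mice the count was 9, where 6.18% of all genes were called. It was 5 with centred arrays (1.75% of all genes), 5 with the mean of all probe sets (3.32%) and 4 without the trend (3.01%). It was 5 when only the compared groups were fitted (2.61%). The interaction count was 0. Without the arrays of high adipocyte signal, which leaves 1 WT-Air array, the interaction of Gsto1 was -1.22. The cause of these shifts was not tested. When 1 array was left out, the counts ranged from 0 to 2 for genotype in air (0 without Nfkb1KO-Air replicate 1 or 3, 2 without Nfkb1KO-O3 replicate 3). In the fits named, 0.183%, 0.0855% and 0.28% of all genes were called. The counts ranged from 0 to 1 for genotype after O3 (0 without WT-O3 replicate 1 or 2 or Nfkb1KO-O3 replicate 1, and Srxn1 in place of Gclc without Nfkb1KO-O3 replicate 3). The shares of all genes called there were 0.507%, 0.348%, 0.291% and 0.456%. For O3 the counts ranged from 4 to 8 in WT mice (4 without WT-O3 replicate 2, where 1.66% of all genes were called). In Nfkb1-deficient mice they ranged from 4 to 9 (5 without Nfkb1KO-Air replicate 1 or 3, 4 without Nfkb1KO-O3 replicate 1). The shares of all genes called in the fits named for Nfkb1-deficient mice were 3.17%, 4.22% and 2.09%. The interaction count stayed at 0. With the replicate number as a block the counts were 1, 1, 7, 8 and 0 in the order above. The shares of all genes called were 0.256%, 0.569%, 4.13%, 4.89% and 0.0228%. Of the 12 arrays, 0 correlated best with an array of their own number. Dim genes such as Slc7a11 and Gpx5 have the least precise values.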
